A study of Mus musculus with 8 samples.

Results

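The calcium-dependent kinases and calcineurin are measured here as 9 genes: the CaMKII subunit genes Camk2a, Camk2b, Camk2d and Camk2g, the nuclear kinase gene Camk4, the conventional protein kinase C genes Prkca and Prkcb, and the calcineurin catalytic subunit genes Ppp3ca and Ppp3cb. They were chosen by name, with every probe set annotated to exactly 1 of them, and all 9 had at least 1 such probe set. This gave 18 of the 22626 probe sets on the array, controls left out. Hippocampal RNA came from 8 male SCID mice aged 12 weeks, a strain without mature B and T lymphocytes, with 1 array per mouse. All 8 went through contextual fear conditioning. The FTY720 group (mice 1, 4, 5 and 6) was dosed by mouth with 1 mg/kg of FTY720 in saline on 3 days, and the vehicle group (mice 13 to 16) received oral saline on the same schedule. The hippocampus was removed 1 hour after a consolidation test, 17 hours after the last dose. FTY720, or fingolimod, resembles sphingosine, and once phosphorylated it binds sphingosine-1-phosphate receptors. No untrained group was analysed here, so the values do not show what fear conditioning itself did to these genes.

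Calcium that enters a neuron through NMDA receptors binds calmodulin, and calcium-calmodulin switches on both CaMKII and calcineurin. CaMKII is a holoenzyme built from alpha, beta, gamma and delta subunits that phosphorylates itself and so outlasts the calcium signal, and it is required for long-term potentiation and hippocampal memory. Calcineurin is the opposing phosphatase, tied to synaptic depression and to the activation of NFAT factors. CaMKIV carries the signal to CREB in the nucleus, and the conventional protein kinase C isoforms need both calcium and diacylglycerol. The arrays measured RNA, so neither activity nor phosphorylation of the enzymes was observed.

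None of the 9 genes differed between FTY720 and vehicle mice beyond the spread between animals. In the limma fit over all probe sets, 0 of the 18 passed an adjusted p of 0.05, and neither did any other probe set (0% of 22626). At an unadjusted p under 0.05 there were also 0 of 18, where 6.76% of all probe sets reached it. In 0 of 18 did the values of the groups fail to overlap, where 4.38% of all probe sets had groups that did not overlap. The 18 differences had a median of 0.03 on the log2 scale, beside 0.0090 for all probe sets, and ran from -0.24 to 0.15. The lowest adjusted p among them was 0.809.

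The precision of that result differed between genes. All 18 of the 95% confidence intervals of the difference held 0, and 10 of them lay within a 1.2-fold change in either direction. Within 1.5-fold lay 17, all but the brighter Camk2d probe set. The narrowest interval, that of the brightest Ppp3ca probe set, reached from a 7.32% lower to a 9.77% higher signal in FTY720 mice. The interval of the brighter Camk2d probe set, the widest, reached from 36.3% lower to 13.3% higher.

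**Figure D1:**
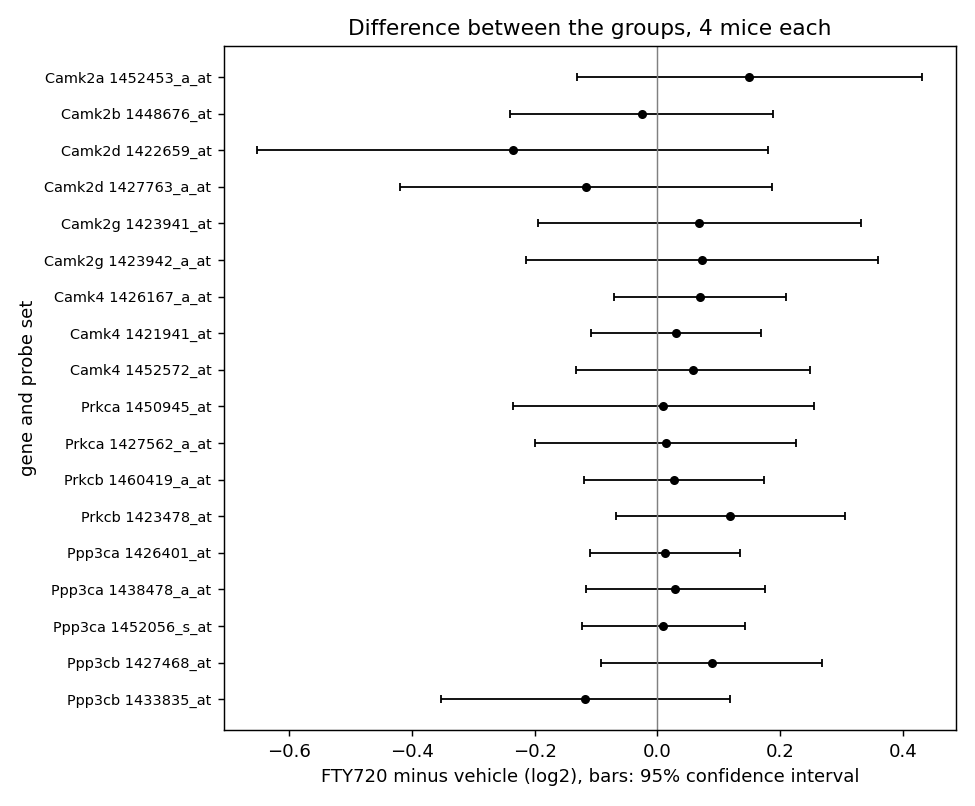
Difference between FTY720 and vehicle mice (log2, horizontal axis) for each of the 18 probe sets of the 9 genes (vertical axis). Points are limma estimates and bars their 95% confidence intervals (n = 4 per group). All 18 bars cross 0, and the widest belongs to Camk2d 1422659_at.

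The array medians of the deposited values lay between 6.68 and 6.72, which cannot show that the RNA was alike because these values were already processed. Vehicle 15 stood apart on principal component 1 (32.3% of the variance) and vehicle 16 on component 2 (20.2%). Markers of neighbouring regions differed between mice. In vehicle 15 the thalamus and habenula markers (10 of 11 measured) stood 1.17 above the mean of the 8 mice, where the others lay between -0.40 and 0.26. Its striatum markers (8 of 11 measured) stood 1.38 above, where the others lay between -0.34 and 0.32. The neocortex markers (8 of 9 measured) went the other way, lowest in vehicle 15 at -0.35 and highest in vehicle 16 at 0.58. The mean level of the thalamus list ran from 6.78 to 6.95 in FTY720 and from 6.91 to 8.35 in vehicle mice, that of the striatum list from 7.33 to 7.47 and from 7.36 to 9.05, and that of the neocortex list from 8.55 to 8.70 and from 8.35 to 9.27. Thalamus markers were lower with FTY720 in 9 of 10. Of the 10, 6 had an unadjusted limma p under 0.05, and in 3 the groups did not overlap. Striatum markers were lower in 8 of 8, with 0 at that p. Neocortex markers were lower in 7 of 8, with 2 at that p, 1 higher and 1 lower. None passed adjustment. On the thalamus list vehicle 13 (0.05) and 14 (0.26) also lay above all FTY720 mice, while vehicle 16 (-0.27) did not. Oligodendrocyte and myelin markers (12 of 15 measured) were lower with FTY720 in 12 of 12, by a median of -0.33. Of these, 11 had an unadjusted limma p under 0.05, none passed adjustment, and in 7 the groups did not overlap. Over all genes, 6.26% had such a p and 4.49% had groups that did not overlap. The lists were chosen with earlier results of these data known, so the marker counts are a description and not an independent test. The mean level of the myelin list ran from 9.24 to 9.45 in FTY720 and from 9.47 to 9.85 in vehicle mice. On a log2 scale no marker has a level of 0, so absence of these cells cannot be read from it. Among hippocampal markers, Wfs1 of CA1 read 9.87, Nptx1 of CA3 11.07 and Calb1 of the dentate gyrus 11.06. Others of the same lists were dim, such as Prox1 (3.29) and Tdo2 (5.57) of the dentate gyrus and Iyd of CA3 (4.44). The 5' minus 3' difference of the Gapdh control probe sets, a sign of RNA integrity, was -0.95 ± 0.14 (SD) with FTY720 and -1.20 ± 0.18 with vehicle (n = 4 each). An exact permutation test, two-sided, gave p = 0.0571 for it, where 0.0286 is the smallest possible.

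Vehicle 15 was the lowest of the 8 mice in 10 of the 18 probe sets and the highest in 2 more, where it was lowest in 22.8% and highest in 15.9% of all probe sets. With all 8 mice, 14 of the 18 differences were above 0, as were 54.4% of those of all probe sets. Without vehicle 15, 8 of the 18 changed sign and 10 kept it, which left 6 above and 12 below 0, with a median of -0.02, and without vehicle 15 and 16 together again 6 and 12, with a median of -0.03. Without FTY720 4, the highest of the 8 mice in 8 of these probe sets and in 13.0% of all, 10 were above 0. The share of all probe sets above 0 was not taken with mice left out. The part of the region and myelin markers in these values was not tested, and in whole-tissue RNA fewer cells of a type and less RNA per cell cannot be told apart.

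**Figure D2:**
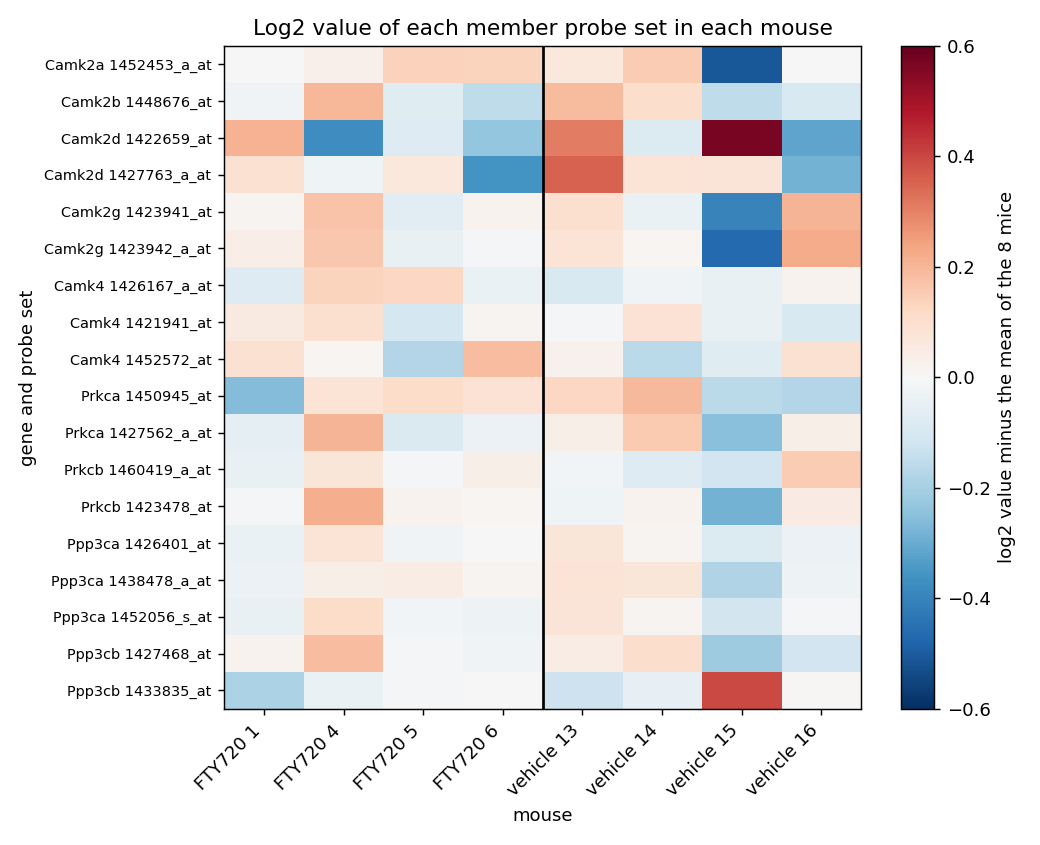
Log2 value of each probe set (rows) in each mouse (columns, FTY720 left of the line and vehicle right), coloured by its distance from the mean of the 8 mice. The vehicle 15 column holds the lowest value of 10 of the 18 rows, with Camk2d 1422659_at and Ppp3cb 1433835_at as the rows where it is highest.

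Among the CaMKII subunits, the gene with the largest difference was Camk2d, which encodes the delta subunit. Its brighter probe set, 1422659_at, read 8.13, 7.55, 7.84 and 7.68 in FTY720 mice 1, 4, 5 and 6, and 8.22, 7.83, 8.48 and 7.60 in vehicle mice 13 to 16. The groups overlapped over most of their range, with the highest value in vehicle 15 and the lowest in FTY720 4. The means were 7.80 ± 0.25 (SD) and 8.03 ± 0.40 (n = 4 each), a difference of -0.24 (SE 0.19, limma adjusted p = 0.836). It was -0.09 without vehicle 15 and -0.38 without vehicle 16. The dimmer probe set, 1427763_a_at, differed by -0.12 (SE 0.14), with 5.70 in FTY720 6 and 5.78 in vehicle 16 as its lowest values and 6.41 in vehicle 13 as its highest. The difference of this dimmer probe set was -0.016 without FTY720 6 and -0.017 without vehicle 13. Both Camk2d probe sets were below 0 in every setting that held them, and neither passed in any. Several of these settings could not alter the difference itself.

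The upstream sequences of Camk2d and Prkcb are shown because they hold the largest difference and, for Prkcb 1423478_at, the smallest p (unadjusted p = 0.185) of the 18, on opposite sides of 0. Windows of 5 of the 9 genes were used, from RefSeq (GRCm38.p6), and each is the 250 bases before the annotated start, 5′ to 3′. Capitals mark GC boxes, read as GGGCGG or its reverse complement CCGCCC. The Camk2d window is chr3:126596701-126596950 on the plus strand and the Prkcb window is chr7:122288875-122289124 on the plus strand.
Camk2d: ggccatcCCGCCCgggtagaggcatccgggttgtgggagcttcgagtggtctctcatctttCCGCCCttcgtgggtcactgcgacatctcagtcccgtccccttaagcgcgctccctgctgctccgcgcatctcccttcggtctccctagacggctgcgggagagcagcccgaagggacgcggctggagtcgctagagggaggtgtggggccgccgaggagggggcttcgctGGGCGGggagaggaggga
Prkcb: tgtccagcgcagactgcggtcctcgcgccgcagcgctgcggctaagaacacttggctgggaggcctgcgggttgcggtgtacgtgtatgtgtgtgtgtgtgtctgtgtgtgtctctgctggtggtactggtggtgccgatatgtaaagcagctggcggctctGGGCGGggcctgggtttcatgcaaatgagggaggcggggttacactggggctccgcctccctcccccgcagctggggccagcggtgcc
Camk2d had 3 GC boxes, whose first bases lay 243, 189 and 18 bases before the start, and Prkcb had 1, at 88 bases. A GC box was present in 32.7% of the 32851 windows of this length in the table. Neither window held the cAMP response element core TGACG (17.8% of all windows), the TATA box TATAAA (12.4%) or the CCAAT box CCAAT (33.8%), on either strand. The windows of Camk2b, Prkca and Ppp3cb had 3, 2 and 2 GC boxes and none of the other motifs. Windows of Camk2a, Camk2g, Camk4 and Ppp3ca were left out, so nothing is said here about motifs before those genes. These are matches of letters and say nothing about which factors bind.

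Camk2a and Camk2b encode the alpha and beta subunits that make up most CaMKII of forebrain neurons. The single Camk2a probe set, 1452453_a_at, read 5.08, 5.11, 5.22 and 5.21 in FTY720 mice and 5.14, 5.23, 4.57 and 5.08 in vehicle mice. Vehicle 15 was far below the 7 other mice, which lay within 0.16 of each other. The difference was 0.15 (SE 0.13, limma adjusted p = 0.849) with all 8 mice and 0.0051 without vehicle 15. This probe set was dim, at the 26.7th percentile of all probe sets. Camk2a RNA is known to be abundant in hippocampal neurons, and a dim probe set can understate differences, so this value is taken as a weak measurement of Camk2a. Whether differences were understated here was not tested.

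Camk2b, measured by 1448676_at, read 10.94, 11.16, 10.89 and 10.81 in FTY720 mice and 11.15, 11.07, 10.81 and 10.87 in vehicle mice. The highest and the lowest value both fell in the FTY720 group. The means of 10.95 ± 0.15 (SD) and 10.98 ± 0.16 (n = 4 each) differed by -0.03 (SE 0.10, limma adjusted p = 0.974), and by -0.16 without vehicle 15 and 16. The 95% interval reached from 15.3% lower to 14.0% higher.

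Camk2g, the gamma subunit gene, had a pair of probe sets that followed each other closely from mouse to mouse (Pearson r = 0.987 over 8 mice, 0.959 without vehicle 15, as a description). The brighter, 1423941_at, read 10.49, 10.65, 10.41 and 10.50 in FTY720 mice and 10.57, 10.44, 10.08 and 10.68 in vehicle mice. The vehicle group held both extremes, vehicle 15 at the bottom and vehicle 16 at the top. The difference was 0.07 (SE 0.12, limma adjusted p = 0.929), and it was -0.05 without vehicle 15 and 0.15 without vehicle 16. The other probe set gave 0.07, -0.07 and 0.16 for the same 3 fits. Camk2g thus had no settled sign, as both differences fell below 0 without vehicle 15 and grew without vehicle 16.

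Camk4 encodes CaMKIV, the kinase that phosphorylates CREB in the nucleus. Its brightest probe set, 1426167_a_at, read 6.80, 7.00, 7.00 and 6.83 in FTY720 mice and 6.78, 6.85, 6.83 and 6.89 in vehicle mice. FTY720 4 and 5 were the highest of the 8, and the other FTY720 mice lay inside the vehicle range. The means of 6.91 ± 0.11 (SD) and 6.84 ± 0.05 (n = 4 each) differed by 0.07 (SE 0.06, limma adjusted p = 0.857). The other probe sets, 1421941_at and 1452572_at, differed by 0.03 (SE 0.06) and 0.06 (SE 0.09). The 3 did not vary together between mice, with pairwise Pearson r of -0.116, -0.371 and 0.122 over 8 mice, and the range of each over the 8 mice was at most 0.36.

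The protein kinase C genes gave values of like size. Prkcb, abundant in forebrain neurons, had the smallest p of the 18 at 1423478_at, which read 10.59, 10.81, 10.62 and 10.61 in FTY720 mice and 10.57, 10.62, 10.32 and 10.65 in vehicle mice. FTY720 4 stood above and vehicle 15 below the other 6, which lay within 0.07 of each other. The difference was 0.12 (SE 0.08, limma adjusted p = 0.809), and 0.04 without vehicle 15. The brighter Prkcb probe set, 1460419_a_at, read 12.31, 12.42, 12.34 and 12.39 in FTY720 mice and 12.34, 12.27, 12.24 and 12.50 in vehicle mice. Here vehicle 15 and vehicle 16 were the lowest and the highest of all 8, and the difference was 0.03 (SE 0.07, limma adjusted p = 0.957).

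Prkca, the alpha isoform gene, was measured at 1450945_at as 6.64, 6.98, 7.01 and 6.98 in FTY720 mice and 7.02, 7.09, 6.74 and 6.72 in vehicle mice. FTY720 1 was the lowest of the 8 and the vehicle mice split into 2 higher and 2 lower. The difference was 0.01 (SE 0.11, limma adjusted p = 0.991). Without vehicle 15 and 16 it was -0.15. The 2 vehicle mice kept were then above all FTY720 mice, which chance meets more easily with only 2 mice in a group. The dimmer probe set, 1427562_a_at, differed by 0.01 (SE 0.10), or -0.09 without those mice.

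Ppp3ca, the alpha catalytic subunit gene of calcineurin, was the most evenly measured of the 9. Its brightest probe set, 1426401_at, read 12.93, 13.05, 12.94 and 12.97 in FTY720 mice and 13.04, 12.99, 12.89 and 12.93 in vehicle mice. All 8 mice lay within 0.16, with vehicle 15 lowest and FTY720 4 highest. The means of 12.97 ± 0.05 (SD) and 12.96 ± 0.07 (n = 4 each) differed by 0.01 (SE 0.05, limma adjusted p = 0.979). The others gave 0.03 (1438478_a_at, SE 0.07) and 0.0097 (1452056_s_at, SE 0.06). All 3 lay between the 98.5th and the 99.7th percentile of level. Without vehicle 15 the differences of all 3 were below 0, at -0.01, -0.03 and -0.02.

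Ppp3cb, the beta catalytic subunit gene, had probe sets that disagreed. The brighter, 1427468_at, read 10.03, 10.19, 10.00 and 9.98 in FTY720 mice and 10.05, 10.11, 9.79 and 9.89 in vehicle mice. The dimmer, 1433835_at, read 7.46, 7.62, 7.64 and 7.65 in FTY720 mice and 7.53, 7.60, 8.05 and 7.66 in vehicle mice. Vehicle 15 was thus the lowest of 8 on the first and the highest on the second. The differences were 0.09 (SE 0.08, limma adjusted p = 0.860) and -0.12 (SE 0.11, limma adjusted p = 0.858), on opposite sides of 0. Without vehicle 15 they were 0.03 and -0.0041. Which transcripts each of them detects was not analysed here.

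**Figure D3:**
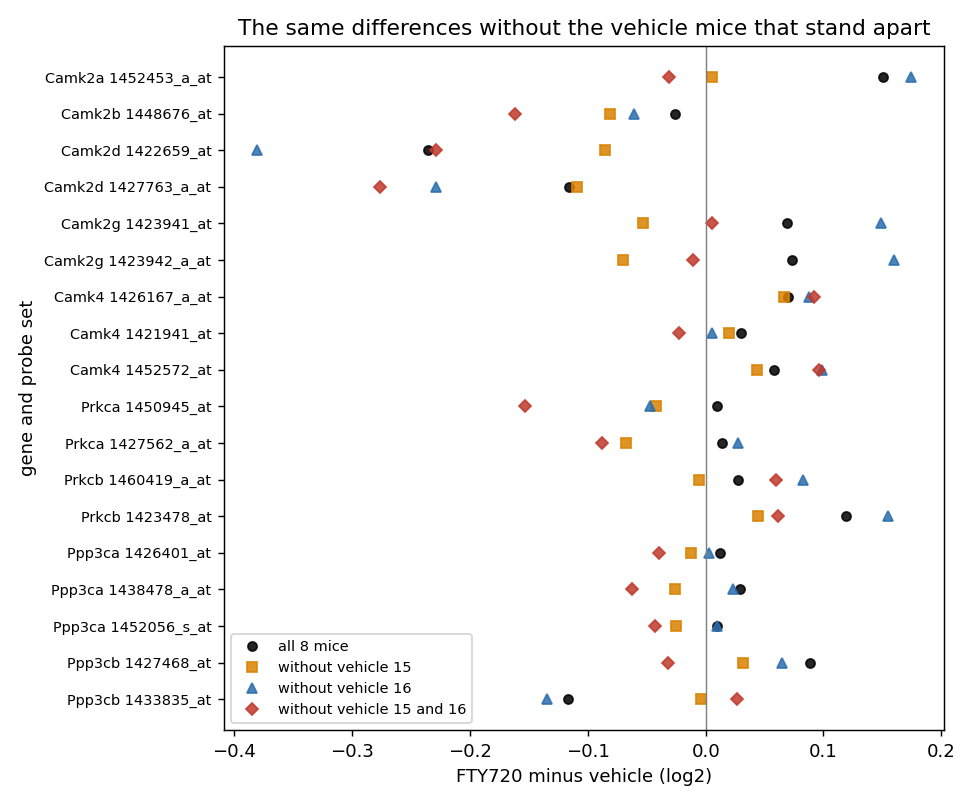
Difference between FTY720 and vehicle mice (log2, horizontal axis) for the same 18 probe sets (vertical axis), with all 8 mice, without vehicle 15, without vehicle 16 and without both. Camk2a falls from 0.15 to 0.0051 without vehicle 15, the Camk2g points cross 0, and both Camk2d probe sets stay below 0 in all 4 sets of mice.

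For each gene the most similar profiles over the 8 mice were sought among 10444 to 10447 probe sets of other genes above the median level, with Pearson r as a description. The closest were Klf9 for Camk2g (r = 0.986), Cebpd for Ppp3cb (0.980), Med10 for Ppp3ca (0.973), Aldoa for Camk2a (0.972), Zcchc8 for Prkcb (0.972), Sub1 for Camk4 (0.971), Rb1cc1 for Camk2b (0.967), Sqor for Camk2d (0.967) and Cops9 for Prkca (0.959). They were picked as the highest of all these candidates, over only 8 mice and on the same arrays. Without vehicle 15 the value for Aldoa was 0.875, and the 8 others lay between 0.938 and 0.992. The number of candidates with r over 0.9 ran from 8 for Camk2d to 170 for Camk2a.

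The genes that work with these enzymes were read from 8 lists of partners, 117 names of which 81 had a probe set of their own. At the brightest probe set of each gene, 7 of 81 (8.64%) had an unadjusted p under 0.05, 3 higher and 4 lower in FTY720 mice, where 6.26% of all genes did. None passed the adjusted p of 0.05 (limma, lowest 0.593). In 4 of 81 the groups did not overlap, where 4.49% of all genes had groups that did not. Of the 81, 43 were above 0, as were 53.5% of all genes, and their median difference was 0.0080, beside 0.0072 for all genes.

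Of the 5 measured genes in the list of calmodulin-binding neuronal proteins and their relatives, 2 were above 0, with a median of -0.0021. Its lowest p belonged to Pcp4, a small protein that speeds the exchange of calcium on calmodulin. Pcp4 read 11.71, 11.70, 11.87 and 11.45 in FTY720 mice and 12.01, 12.05, 12.86 and 12.09 in vehicle mice. Every FTY720 value was below every vehicle value, with vehicle 15 far above the rest. The difference was -0.57 (SE 0.18, limma adjusted p = 0.685), and -0.36 without vehicle 15. Camta2 (0.07) and Calml4 (-0.47, SE 0.68) followed, and without vehicle 15 they stood at -0.04 and -0.058. With 1 mouse left out Calml4 ranged from -0.89, without FTY720 1, to that value. Calml4 lay between 7.10 and 7.87 in FTY720 1 and 5 and vehicle 14 and 15, and between 5.06 and 5.70 in the others. Choroid plexus markers split along the same mice, and the reason was not tested.

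Of the other calmodulin-dependent kinases, 9 of 12 were above 0, with a median of 0.08. Camkv, a kinase-like protein of dendritic spines, read 10.38, 10.37, 10.33 and 10.38 in FTY720 mice and 10.33, 10.27, 10.00 and 10.19 in vehicle mice. The groups touched without overlap, and the difference was 0.17 (SE 0.07, limma adjusted p = 0.708), or 0.07 without vehicle 15 and 16. The death-associated kinase gene Dapk1 stood at 0.10 and the myosin light chain kinase gene Mylk at 0.12. All 7 measured genes of the CaMKII anchors and substrates were above 0, with a median of 0.05 and none at an unadjusted p under 0.05. They were led by Gria1 (0.21, SE 0.10), the AMPA receptor subunit that CaMKII phosphorylates, Syn1 (0.17) and Grin2a (0.13). Without vehicle 15 and 16 these stood at 0.04, 0.04 and 0.09. The CaMKII inhibitor genes Camk2n1 and Camk2n2 were not measured.

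Of the other protein kinase C and D genes, 4 of 9 were above 0, with a median of -0.05. Prkd2, a protein kinase D, read 5.90, 5.81, 5.83 and 5.86 in FTY720 mice and 5.53, 5.45, 5.57 and 5.73 in vehicle mice. The groups did not overlap, and the difference was 0.28 (SE 0.06, limma adjusted p = 0.593), the lowest p of the 81 genes. The probe set was dim, and of the 5 for this gene 3 were above 0, with 1437509_x_at at -0.20 (SE 0.07, limma adjusted p = 0.699), also at an unadjusted p under 0.05. The mean of all Prkd2 probe sets gave 0.031 (limma adjusted p = 0.916), which was not. Prkcd, the delta isoform that is also a thalamus marker, read 6.68, 6.77, 6.87 and 6.37 in FTY720 mice and 7.26, 7.31, 8.61 and 6.73 in vehicle mice. Vehicle 15 was again far above the rest. The difference was -0.81 (SE 0.33, limma adjusted p = 0.704), or -0.43 without vehicle 15. Prkcq stood at -0.15.

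Around protein kinase C, 8 of 16 activators, anchors and substrates were above 0, with a median of 0.0050. Marcks, the membrane substrate that protein kinase C releases from the membrane, read 10.88, 10.68, 10.68 and 10.82 in FTY720 mice and 10.91, 10.89, 11.09 and 11.18 in vehicle mice. The groups did not overlap, by a narrow margin, and the difference was -0.25 (SE 0.08, limma adjusted p = 0.685), or -0.13 without vehicle 15 and 16. All 6 Marcks probe sets were below 0. Plcb1, the phospholipase that makes diacylglycerol, read 7.70, 7.94, 7.38 and 7.45 in FTY720 mice and 7.54, 7.47, 7.07 and 7.07 in vehicle mice. The groups overlapped, and the difference was 0.33 (SE 0.15, limma adjusted p = 0.732), or 0.11 without vehicle 15 and 16, with 3 of 4 probe sets above 0 and the others between -0.04 and 0.09. Pick1 stood at 0.09.

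On the calcineurin side, 4 of 7 subunits, regulators and anchors were above 0, with a median of 0.0080 and none at an unadjusted p under 0.05. The regulators Rcan2 and Rcan1 stood at -0.15 (SE 0.13) and -0.06, and Fkbp1a, the FK506-binding protein, at 0.05. Rcan2 was 0.05 without vehicle 15 and 16. Of the calcineurin targets and the phosphatase 1 arm, 3 of 17 were above 0, with a median of -0.04. Crtc2, a CREB coactivator that calcineurin dephosphorylates, read 5.48, 5.41, 5.66 and 5.38 in FTY720 mice and 5.71, 5.69, 5.73 and 5.55 in vehicle mice. Only FTY720 5 reached into the vehicle range, and the difference of this dim probe set was -0.19 (SE 0.07, limma adjusted p = 0.699). Ppp1r1b, the phosphatase 1 inhibitor DARPP-32 and a striatum marker, stood at -0.42 (SE 0.25), or 0.03 without vehicle 15 and 16, and Ppp1r1a at -0.15 (SE 0.09).

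Downstream of CaMKIV, 6 of 8 measured genes on the CREB side were above 0, with a median of 0.04 and none at an unadjusted p under 0.05. Fos stood at -0.41 (SE 0.32), or -0.07 without vehicle 16, the coactivator gene Crebbp at 0.05 and Srf at 0.07, or -0.02 without vehicle 15.

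**Figure D4:**
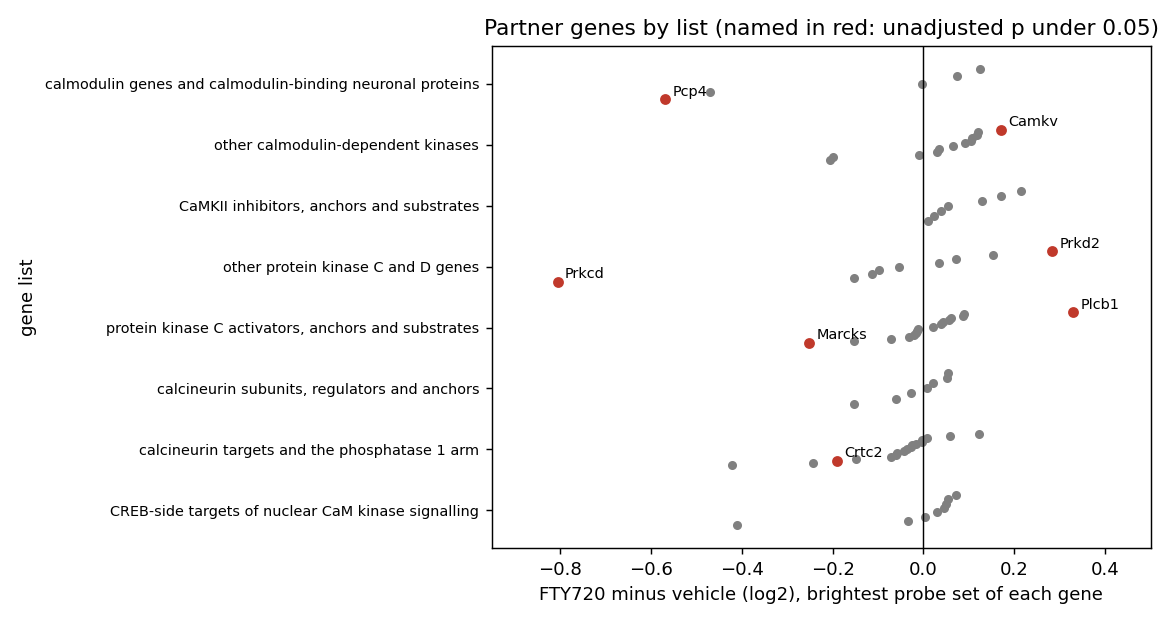
Difference between FTY720 and vehicle mice (log2, horizontal axis) at the brightest probe set of each of the 81 measured partner genes, by list (vertical axis). Red points with names are the 7 at an unadjusted p under 0.05, from Prkcd at -0.81 to Plcb1 at 0.33, none of which passed adjustment.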

How the data were processed

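Values were the authors' deposited log2 probe set summaries, a scale read from their range (2.31 to 14.51) and near-equal array distributions. Per the submitters' processing notes the tools were MAS5, RMA and Affymetrix Expression Console. Neither their versions, nor which of them made these values, nor the build the authors used is given in the sources used here. Per the labels' protocols, 100 ng of total RNA was labelled per mouse. Of 22690 rows, 64 controls were left out. The platform annotation gave 1 symbol to 20380 of the rest and several to 691. The values were used as they stand, without a filter.

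The groups were compared in R 4.3.3 by the lmFit and eBayes functions of limma 3.58.1, with no covariate and with Benjamini-Hochberg adjustment over 22626 probe sets, after a check on simulated data. SE values are those of the fit, SD values are between mice. Levels of different probe sets are not compared as RNA amounts. The mice are separate animals, and no 2 arrays were identical. Every probe set of a member is reported, the brightest first, with the 3 most similar genes found by Pearson r, of which the first is printed. Of each partner list, the 3 genes of smallest unadjusted p are named. The members, lists and most alternatives were chosen with earlier results of these data known. Alternatives were quantile normalization, centring, a filter on dim probe sets, other choices of probe sets, variance models and array weights, the Gapdh difference as a covariate, and leaving out mice. Other marker lists showed the following counts above 0: choroid plexus 0 of 9, dentate gyrus 2 of 6, CA1 2 of 3, CA3 5 of 6, interneuron 6 of 10, astrocyte 2 of 8, microglia 4 of 9 and endothelium 2 of 8. In the same order, 0, 1, 0, 2, 3, 1, 0 and 2 had an unadjusted limma p under 0.05, and none passed adjustment. Of all genes, 53.5% were above 0 and 6.26% had such a p. Those of the dentate gyrus, CA3 and interneuron lists were higher with FTY720, that of astrocytes lower, and those of endothelium 1 each way. Groups did not overlap for 1 CA3, 2 interneuron and 1 astrocyte marker, beside 4.49% of all genes. The choroid plexus list split within both groups. FTY720 1 and 5 and vehicle 14 and 15 stood 0.53 to 1.21 above the mean of the 8 mice, and the others between -1.08 and -0.32.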

Additional observations from a re-analysis of the deposited data

Results flagged for a closer look

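In 2 of the 36 sets of 4 mice (18 probe sets, 2 groups), 1 mouse stood apart from the other 3 by Dixon's criterion, which chance meets in about 1 of 20 sets. For Prkca 1450945_at in the FTY720 group, mouse 1 read 6.64 and the other 3 lay between 6.98 and 7.01, so that the gap was 0.916 of the range. For Prkcb 1423478_at in the FTY720 group, mouse 4 read 10.81 and the other 3 lay between 10.59 and 10.62, a gap of 0.852 of the range. Without FTY720 1 the Prkca difference was 0.10, and without FTY720 4 that of Prkcb was 0.07.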

How the results depend on the processing

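No setting gave any of the 18 probe sets an adjusted p under 0.05 or an unadjusted p under 0.05. The lowest adjusted p of any of them was 0.695. Of the 174 values of these 18 probe sets under the other settings 22 changed sign, and of the 144 with 1 mouse left out 18 did. The filter on dim probe sets, the choices by probe set name or brightness and the variance models leave each difference as it was. Those settings could not change a sign, so 22 of 174 understates how often the remaining ones did. The percent of all probe sets at an unadjusted p under 0.05 was 4.19 with the Gapdh covariate. Without vehicle 15 and 16, 2 of the 18, Prkca 1450945_at and Ppp3ca 1438478_a_at, had groups that did not overlap. With only 2 vehicle mice left, groups separate more easily by chance. The share over all probe sets was not taken for that setting, so this count is not read as a difference. The causes of the changes of sign were not tested. Quantile normalization gave Prkca 1450945_at -0.0026, and the mean of all probe sets of a gene gave Ppp3cb -0.014. Array weights gave -0.018 (1426401_at), -0.016 (1438478_a_at) and -0.020 (1452056_s_at) for Ppp3ca and -0.024 (1427562_a_at) and -0.062 (1450945_at) for Prkca. The covariate, which was the Gapdh 5' minus 3' value, gave Camk4 1421941_at -0.031, Ppp3ca 1426401_at -0.033 and 1452056_s_at -0.019, Prkca 1427562_a_at -0.00059 and 1450945_at -0.13. Without vehicle 15 and 16 the values were -0.031 for Camk2a, -0.011 for Camk2g 1423942_a_at, -0.022 for Camk4 1421941_at, -0.15 (1450945_at) and -0.088 (1427562_a_at) for Prkca, -0.040 (1426401_at), -0.062 (1438478_a_at) and -0.043 (1452056_s_at) for Ppp3ca, -0.032 for Ppp3cb 1427468_at, 0.026 for 1433835_at, -0.074 for Camta2, 0.050 for Rcan2 and 0.031 for Ppp1r1b. With each mouse left out in turn, Camk2b ranged from -0.096 to 0.033, Camk2g 1423941_at from -0.053 to 0.15 and 1423942_a_at from -0.070 to 0.16. Prkca 1450945_at ranged from -0.047 to 0.098, 1427562_a_at from -0.067 to 0.068 and Prkcb 1460419_a_at from -0.0056 to 0.082. The Ppp3ca ranges were -0.014 to 0.039 (1426401_at), -0.026 to 0.061 (1438478_a_at) and -0.026 to 0.037 (1452056_s_at), those of Srf -0.018 to 0.14 and of Camta2 -0.043 to 0.14. The number of mice limits the precision, and dim probe sets such as that of Camk2a can understate differences, which was not tested. No paired analysis was possible because the groups share no replicate number.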
